A study of Mus musculus with 24 samples.

Results

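The genes described here are 47 interferon-induced genes of the mouse liver, among them the guanylate-binding proteins, found by their symbols in a table of 54532 genes. Every symbol on the list matched 1 row of the table. The 47 comprise 4 Ifi200 genes, 7 immunity-related GTPases (IRGs), 8 guanylate-binding proteins (GBPs), 4 transcription factors, 19 antiviral effectors, 3 genes of antigen processing and 2 chemokines.

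Interferons are cytokines that cells release on infection or immune activation. Type I interferons act, through the JAK kinases, on a complex that holds Stat2 and Irf9 and binds the interferon-stimulated response element (ISRE), whereas interferon gamma acts through the gamma-activated site (GAS). IRGs and GBPs are large GTPases that attack the vacuoles of intracellular parasites and bacteria, and in the liver hepatocytes, Kupffer cells and endothelial cells all respond to interferon.

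RNA-seq was carried out on livers of adult male mice (C57/BL6J in the study's methods) fasted for 24 h, with 4 livers per genotype and 24 in all. Rab30KO mice lacked exon 4 of Rab30, a small GTPase of the Golgi, in the whole body, and Rab30 Ctrl mice were their wildtype littermates. Rab30L-/- and Cpt2L-/- mice lacked, in hepatocytes, Rab30 and carnitine palmitoyltransferase 2 (Cpt2), respectively. DKO mice lacked both, and the floxed controls (ff;ff) were littermates of the DKO that carried the floxed alleles of both genes without deletion. An albumin-driven Cre recombinase made the liver-specific deletions, so Kupffer, endothelial and other non-hepatocyte cells kept the genes. The labels name the floxed controls as littermates of the DKO alone and give no litter for the Rab30L-/- and Cpt2L-/- livers. Separate livers are the replicates.

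The libraries held 11801027 to 24497738 counts (median 14358966). Levels are given as CPM, counts scaled to library size with TMM factors, and a gene was called changed with a Benjamini-Hochberg adjusted p under 0.05 in edgeR's quasi-likelihood test and at least a 1.2-fold change. The targeted transcripts followed the labels only in part. Rab30 lay at 5.39 to 17.4 CPM in Rab30KO, overlapping the 6.64 to 30.1 CPM of Rab30 Ctrl, and at 10.4 to 26.6 CPM in Rab30L-/-, lower on average than the 25.9 to 44.6 CPM of floxed controls but overlapping them. In the livers with Cpt2 deletion Rab30 was higher than in floxed controls, at 122 to 188 CPM in Cpt2L-/- and 100.9 to 231 CPM in DKO livers, although the DKO carries the Rab30 deletion. Cpt2 lay at 128 to 139 CPM in floxed controls, at 95.3 to 167 CPM in Cpt2L-/-, overlapping them, and at 96.1 to 120 CPM in the DKO, below them. Counts over a whole gene also include exons outside a deletion, so each library is named here by its label. All 8 hepatocyte markers were present in every liver, with a summed level of 39860 to 119131 CPM, whereas all 12 markers of T and NK cells stayed under 10 CPM. Among the interferon genes themselves, no liver held more than 5 counts of any of the 9 ligand genes listed (of interferon alpha, beta, gamma, lambda, kappa and epsilon). Before any genotype is compared it should be known that 2 libraries, Rab30KO 1 and Rab30KO 3, stood apart from the other 22 in most of the 47 genes. Fold changes of Rab30KO against Rab30 Ctrl are given with and without them, whereas the levels, ranges and spread of Rab30KO livers are given with them.

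Promoter sequences show what the family shares and what was not used to choose it. In RefSeq windows of the 250 bases before the transcription start (GRCm38.p6), 36 of the 47 genes could be matched. An ISRE, spelled as GAAA, any 2 bases and GAAA again and searched on both strands, was found in 20 of the 36 (55.6%), against 3.46% of 27025 genes. A GAS, spelled TTCNNNGAA and identical on both strands, was found in 12 (33.3%), against 8.13% of all genes, and both motifs were found in 8 (22.2%), against 0.4%. A match describes letters in the window and does not show binding.

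In 4 IRGs the pair had 1 layout, with the GAS 11 bases ahead of the ISRE on the gene's strand. This layout occurred in 5 of the 27025 genes with a window, Igtp, Irgm2, Tgtp1, Tgtp2 and Gm12185, which overlaps Tgtp1 and was not among the 47; the layout was noticed in these windows and then counted. The sequences are shown, with the matched motifs in capitals and 25 bases to either side where the window allows, because Tgtp1 and Tgtp2 had the widest ranges, highest over lowest CPM, between livers of one genotype, among the cases with counts in all 4 livers. The interferon regulatory factor Irf1, with a lone GAS, and the ubiquitin-like modifier Isg15, with 3 overlapping ISREs, are shown for comparison. The position of each follows its name.
Tgtp1 (chr11:48992289-48992359, minus strand): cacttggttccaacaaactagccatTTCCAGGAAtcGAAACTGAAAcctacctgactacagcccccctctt
Tgtp2 (chr11:49064248-49064318, minus strand): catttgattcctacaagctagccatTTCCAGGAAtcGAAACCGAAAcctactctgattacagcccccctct
Igtp (chr11:58199486-58199555, plus strand): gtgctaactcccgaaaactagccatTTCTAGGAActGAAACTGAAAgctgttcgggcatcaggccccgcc
Irgm2 (chr11:58214877-58214947, plus strand): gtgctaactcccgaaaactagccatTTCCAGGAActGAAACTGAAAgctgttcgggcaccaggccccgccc
Irf1 (chr11:53769899-53769957, plus strand): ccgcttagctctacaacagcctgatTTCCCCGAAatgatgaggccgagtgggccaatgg
Isg15 (chr4:156200850-156200921, minus strand): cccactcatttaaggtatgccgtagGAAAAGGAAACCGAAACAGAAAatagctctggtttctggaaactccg
The first motif base lay 88, 81, 45 and 75 bases before the start in Tgtp1, Tgtp2, Igtp and Irgm2, 90 bases before it in Irf1 and 78 bases before it in Isg15.

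The genes also lie together in the genome. On GRCm38 the 47 genes lay on 16 chromosomes, and 31 of them sat in 10 groups in which neighbours were within 1 Mb of each other. The Ifi200 genes Ifi204, Mndal, Ifi203 and Ifi202b lay on chromosome 1 between 173747293 and 173982744. Irgm1, Tgtp1, Tgtp2 and Ifi47 lay on chromosome 11 between 48861968 and 49096974, and Igtp and Irgm2 further along it between 58199556 and 58222782. Gbp5, Gbp7, Gbp3 and Gbp2 lay on chromosome 3 and Gbp9, Gbp10, Gbp6 and Gbp11 on chromosome 5. Several are near copies, and how reads were shared between them is not stated: 70.3% of the 100-base stretches of Tgtp1 transcripts occur in Tgtp2, 60.1% of those of Gbp10 occur in Gbp6, and 31.7% of those of Ifit3 occur in Ifit3b. Igtp lies almost wholly inside the span of Irgm2, and Mndal overlaps Ifi203 and Ifi211 on the same strand, so these counts are uncertain in the same way.

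By FPKM, which accounts for gene length, the 47 genes differed widely in level. Iigp1, a vacuole-attacking IRG, was the highest, with a mean of 84.9 FPKM over the 24 livers and a range of 20.9 to 362, followed by Bst2 (tetherin), which holds budding viruses at the cell surface, with a mean of 60.7 FPKM and a range of 22.2 to 120. Igtp followed with 24.4 and Irgm2 with 13.7 FPKM, and at the low end were Gbp5, Ifi44 and Gbp6 with 0.375, 0.349 and 0.173 FPKM. The highest and lowest genes therefore both belong to the GTPase families.

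**Figure D1:**
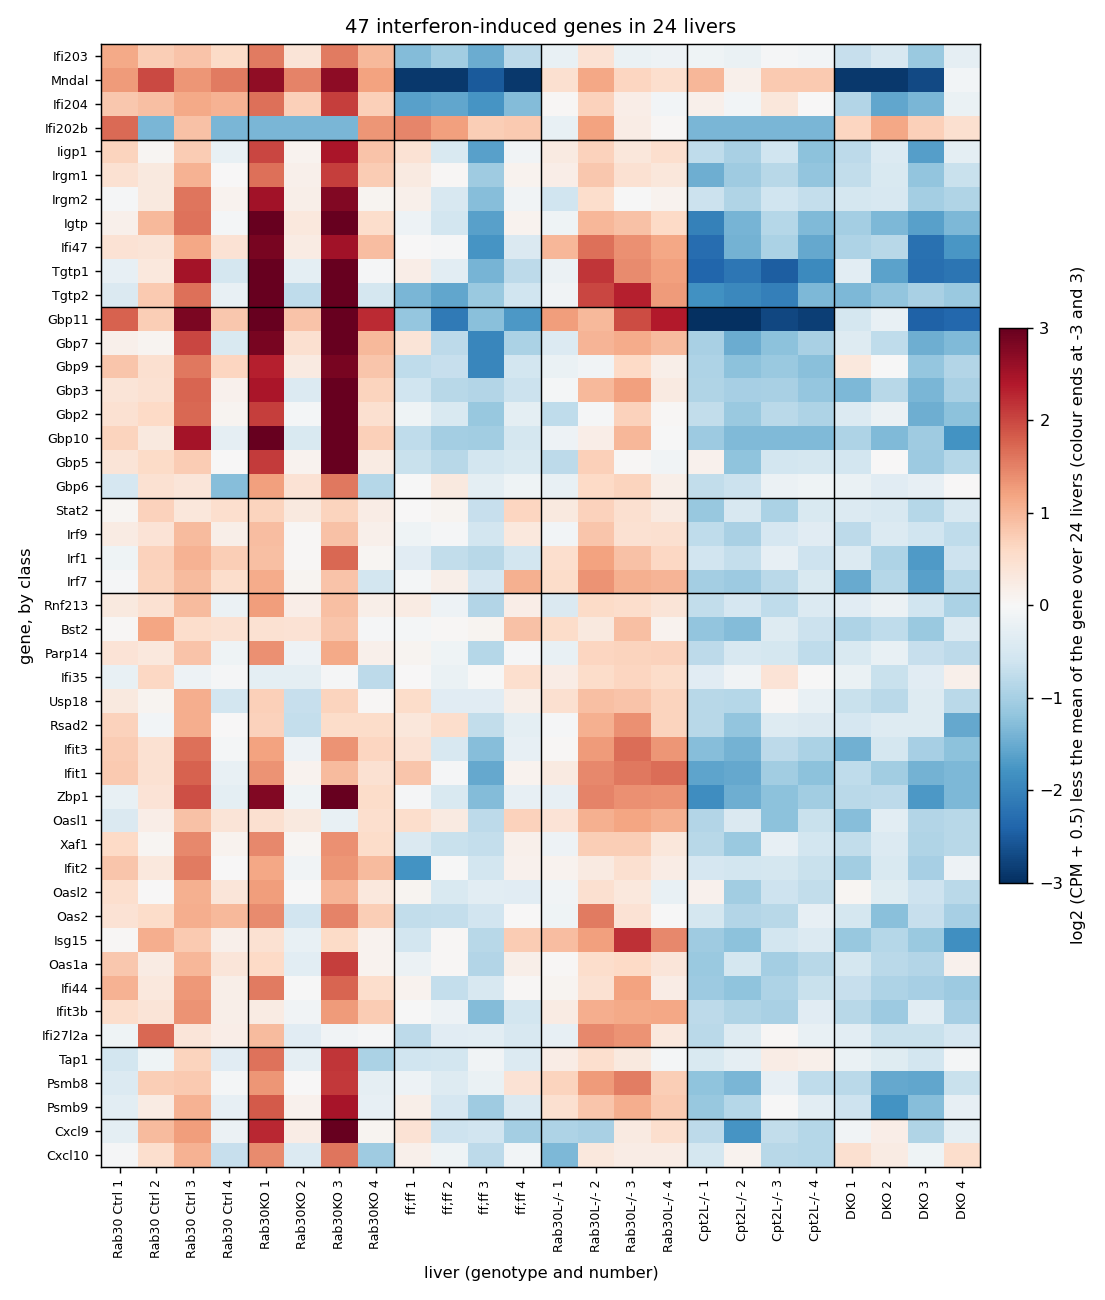
Level of the 47 interferon-induced genes (rows, by class) in each of the 24 livers (columns, by genotype), as log2 (CPM + 0.5) less the mean of the gene over all livers, with the colour ending at -3 and 3. Rab30KO 1 and 3 are high across the IRGs and GBPs, Mndal is near its floor in all 4 floxed controls and in DKO 1, 2 and 3, and most genes are low in the Cpt2L-/- and DKO livers.

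Gene by gene, the Ifi200 family showed the sharpest contrast, with members present in some livers and absent from others. These genes encode nuclear DNA-binding proteins, several of which sense foreign DNA. Mndal, the myeloid nuclear differentiation antigen-like gene (ENSMUSG00000090272, chromosome 1 from 173849126 to 173942491, minus strand), had 0, 0, 2 and 0 counts in floxed controls 1 to 4. In the DKO it had 0, 0, 1 and 64 counts, so that only DKO 4 expressed it. The 4 Rab30L-/- livers had 62, 94, 126 and 62 counts, and the 4 Cpt2L-/- livers 107, 57, 91 and 94. All Rab30KO livers (125 to 321 counts) and all Rab30 Ctrl livers (139 to 285 counts) expressed the gene. Mndal thus separated the floxed controls from every other genotype except the DKO, whose livers lay on both sides.

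Ifi202b, a family member that lacks the pyrin domain of its relatives, showed another pattern (ENSMUSG00000026535, chromosome 1 from 173962568 to 173982744, minus strand). It had 0 counts in all 4 Cpt2L-/- livers, in Rab30KO 1, 2 and 3, and in Rab30 Ctrl 2 and 4. The floxed controls had 35, 43, 24 and 27 counts, the Rab30L-/- livers 8, 30, 24 and 11, and the DKO livers 22, 37, 25 and 28. Among the whole-body animals, Rab30KO 4 had 42 counts, Rab30 Ctrl 1 had 64 and Rab30 Ctrl 3 had 30. Littermate controls of Rab30KO therefore differed from each other in whether this gene was detected at all. With at most 3 counts taken as absent, 9 livers expressed Mndal without Ifi202b, 7 expressed Ifi202b without Mndal, 8 expressed both and 0 expressed neither. All 4 Rab30L-/- livers were of the kind with both. Because livers of the same genotype, wildtype littermates among them, differed in this stretch of chromosome 1, inherited differences between the mice there and the effect of a deletion cannot be told apart in any comparison of the Ifi200 genes below.

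The other Ifi200 genes on the list were never absent but were lowest in the floxed controls and the DKO. Ifi204, a DNA sensor upstream of Sting, lay at 1.22, 1.30, 1.05 and 1.65 CPM in the floxed controls and at 2.37, 1.29, 1.56 and 4.08 CPM in the DKO, against 4.48 to 22.0 CPM in the other 16 livers. The 7 lowest livers for Ifi204 were the same 7 that lacked Mndal. Ifi203 lay at 2.16 to 3.81 CPM in the floxed controls, 2.93 to 5.68 CPM in the DKO and 5.89 to 21.5 CPM in the other livers. Outside the list, the neighbouring Ifi213, chosen with its values in view, had 0, 0, 0 and 0.127 CPM in the floxed controls, 0, 0, 0 and 0.328 CPM in the DKO, and 0.312 to 3.68 CPM elsewhere. Not every neighbour was lowest in these genotypes: Aim2 and Ifi208 had their lowest means in Cpt2L-/-, at 0.745 and 0.111 CPM.

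**Figure D2:**
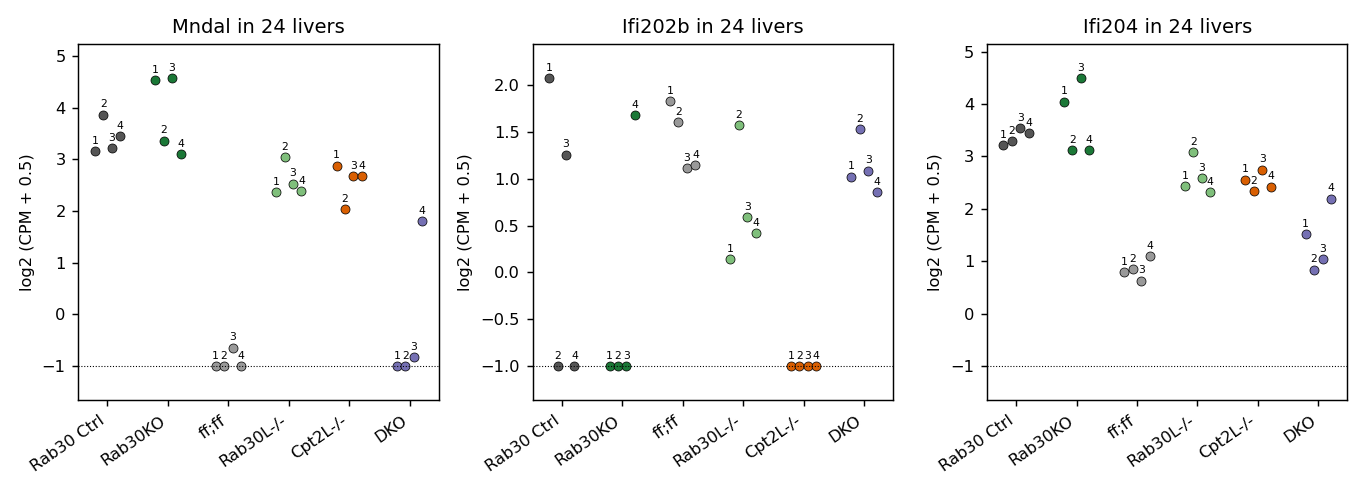
Mndal, Ifi202b and Ifi204 in each liver as log2 (CPM + 0.5), with livers numbered 1 to 4 within each genotype and the dotted line at a CPM of 0. Mndal lies at or near that line in the 4 floxed controls and DKO 1, 2 and 3, Ifi202b lies on it in 9 livers of 3 genotypes, and Ifi204 is lowest in the livers without Mndal but stays above the line in all.

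A rule for genes with separate levels was applied to all 14584 genes kept by a filter on low counts over 24 libraries: a gap of at least 2 on the log2 (CPM + 0.5) scale between neighbouring livers, at least 2 livers on each side, and a median of at least 2 CPM in the upper livers. It found 3 of the 47, Mndal, Tgtp1 and Tgtp2, against 46 of all genes (0.315%). Mndal had a gap of 2.45 with 7 livers below it, and the DKO was its only mixed genotype. Tgtp1 and Tgtp2, T cell-specific GTPases of the IRG family, had gaps of 2.74 and 2.42, with Rab30KO 1 and 3 as the only livers above. Ifi202b fell short, with a gap of 1.14 and a median of 1.71 CPM in its upper livers. With a required gap of 1.5, Igtp and Gbp10 joined the list, with a gap of 3 no gene of the 47 met the rule, and with 1 CPM added in place of 0.5 Mndal no longer met it. With 1 library left out the count was 1 without Rab30KO 1 or Rab30KO 3, since the rule asks for 2 livers on each side, 6 without Rab30 Ctrl 3 and 3 without any other.

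For whole-body Rab30 loss, the question was whether the interferon-induced genes differed between Rab30KO livers and those of wildtype littermates. None of the 46 genes tested was called by edgeR, with 3 at an unadjusted p under 0.05, and 3 of all 13656 genes were called (0.022%). DESeq2's Wald test called 0 of the 46 as well. Ifi202b did not pass the filter on low counts. Their median log2 fold change was 0.41, against -0.0028 over all genes tested. Of the 4 Rab30KO livers, 2 were high. The median was 0.24 without Rab30KO 1, 0.17 without Rab30KO 3, 0.27 without Rab30 Ctrl 4 and 0.62 without Rab30KO 2.

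The GBPs and IRGs had the highest median log2 fold changes of the classes, 1.53 and 1.37, which turned to -0.36 and -0.40 without Rab30KO 1 and 3. Tgtp1 (chromosome 11 from 48985327 to 48994172, minus strand) lay at 159, 2.96, 288 and 3.62 CPM in Rab30KO 1 to 4 and at 3.07, 4.79, 23.3 and 2.44 CPM in Rab30 Ctrl 1 to 4. Tgtp2 lay at 77.1, 1.21, 151 and 1.49 CPM in Rab30KO and at 1.62, 4.45, 8.53 and 1.97 CPM in Rab30 Ctrl. Rab30KO 2 and 4 sat within the range of the littermates in Tgtp1 and below it in Tgtp2. Igtp, a regulatory IRG (chromosome 11 from 58199556 to 58207591, plus strand), lay at 256, 31.1, 378 and 36.0 CPM in Rab30KO against 27.6, 49.0, 77.0 and 23.8 CPM in Rab30 Ctrl. Irgm2, another regulatory IRG, lay at 211, 41.0, 251 and 38.4 CPM against 35.5, 44.8, 111 and 38.9 CPM. In Igtp and Irgm2 too, Rab30KO 2 and 4 lay within the range of the littermates, and the groups overlapped in all 4 of these genes. Rab30 Ctrl 3 was the highest littermate in each.

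The 3 smallest unadjusted p-values in this comparison belonged to Iigp1, Ifi47, a further IRG, and Gbp5, a GBP that promotes inflammasome assembly. Iigp1 lay at 823, 219, 1114 and 371 CPM in Rab30KO and at 327, 213, 345 and 175 CPM in Rab30 Ctrl, with a log2 fold change of 1.24 (SE 0.48, adjusted p = 0.9999). Ifi47 lay at 100.1, 16.1, 80.1 and 26.3 CPM against 18.4, 17.9, 30.9 and 18.3 CPM, with a log2 fold change of 1.37 (SE 0.55, adjusted p = 0.9999). Gbp5 lay at 8.81, 1.82, 18.1 and 2.07 CPM against 2.32, 2.72, 3.16 and 1.70 CPM, with a log2 fold change of 1.63 (SE 0.68, adjusted p = 0.9999). In each of the 3 the groups overlapped. Without Rab30KO 1 and 3, an alternative chosen after the levels were seen, the log2 fold change of Iigp1 was 0.15, that of Ifi47 turned to -0.013 and that of Gbp5 to -0.34, and the median of the tested genes turned from 0.41 to -0.41.

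Rab30KO 1 and 3 held the 2 highest values of all 24 livers in 25 of the 47 genes (53.2%), against 3.44% of the 14584 genes kept. The 25 included all 7 IRGs and all 8 GBPs. In contrast, the same was true of none of the 4 transcription factors: Irf1, which drives interferon gamma responses, lay at 38.0, 20.8, 68.0 and 21.1 CPM in Rab30KO 1 to 4, and Irf7, which amplifies type I interferon, at 35.1, 16.8, 29.2 and 10.7 CPM. The summed level of the 47 genes was 2944 CPM in Rab30KO 1 and 3970 CPM in Rab30KO 3, against 840 and 1073 CPM in Rab30KO 2 and 4. No other liver exceeded 1580 CPM, the value of Rab30 Ctrl 3.

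The chemokines followed the same livers. Cxcl9, a T cell attractant induced mainly by interferon gamma, lay at 19.0, 4.25, 58.6 and 3.82 CPM in Rab30KO and at 2.84, 7.41, 9.29 and 3.12 CPM in Rab30 Ctrl. Cxcl10, its relative that both kinds of interferon induce, lay at 3.38, 0.607, 3.97 and 0.194 CPM against 0.928, 1.58, 2.53 and 0.407 CPM. Neither was called in this comparison.

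Markers of Kupffer cells and macrophages were, in sum, highest in these livers too, above all in Rab30KO 3. The summed level of the 10 markers was 780 CPM in Rab30KO 1 and 1594 CPM in Rab30KO 3, against 326 and 484 CPM in Rab30KO 2 and 4 and 438 to 721 CPM in Rab30 Ctrl. All 10 were highest of the 4 Rab30KO livers in Rab30KO 3, among them the Kupffer lectin Clec4f at 294 CPM and the receptor Csf1r at 264 CPM. Not all were raised in Rab30KO 1, where Lyz2 and Cd68 (40.5 and 10.3 CPM) lay below Rab30KO 4 (45.1 and 11.8 CPM). Lyz2 in Rab30KO 1 also lay below the 49.1 to 68.8 CPM of Rab30 Ctrl. The antigen-presentation genes Cd74 and H2-Aa reached 820 and 332 CPM in this genotype, against 248 and 97.6 CPM at most in Rab30 Ctrl. The 12 T and NK cell markers summed to 12.9 and 22.5 CPM in Rab30KO 1 and 3, against 5.54 and 7.37 CPM in Rab30KO 2 and 4. Neutrophil markers summed to 6.75 and 12.6 CPM in Rab30KO 1 and 3 against 2.88 and 4.59 CPM in the other two, and B cell and dendritic cell markers were highest in Rab30KO 3, at 22.1 and 16.4 CPM. Summed hepatocyte markers were lower in Rab30KO 1 and 3, at 85781 and 90977 CPM against 119131 and 114608 CPM in Rab30KO 2 and 4. Alb made up most of this sum, and Apoa2, Ttr and Trf were lower too. Serpina1a and Fgb overlapped, and Apoa1 and Hnf4a were highest in Rab30KO 3, at 5430 and 747 CPM. Summed bile duct markers were also lower, at 20.7 and 22.1 CPM against 42.8 and 34.7 CPM. Spp1 made up most of that sum, whereas Sox9 was higher in Rab30KO 1 and 3, at 4.53 CPM or more against 2.43 CPM or less. The part of these cells in the difference was not tested, and in bulk tissue more cells of a type and more RNA per cell cannot be told apart.

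**Figure D3:**
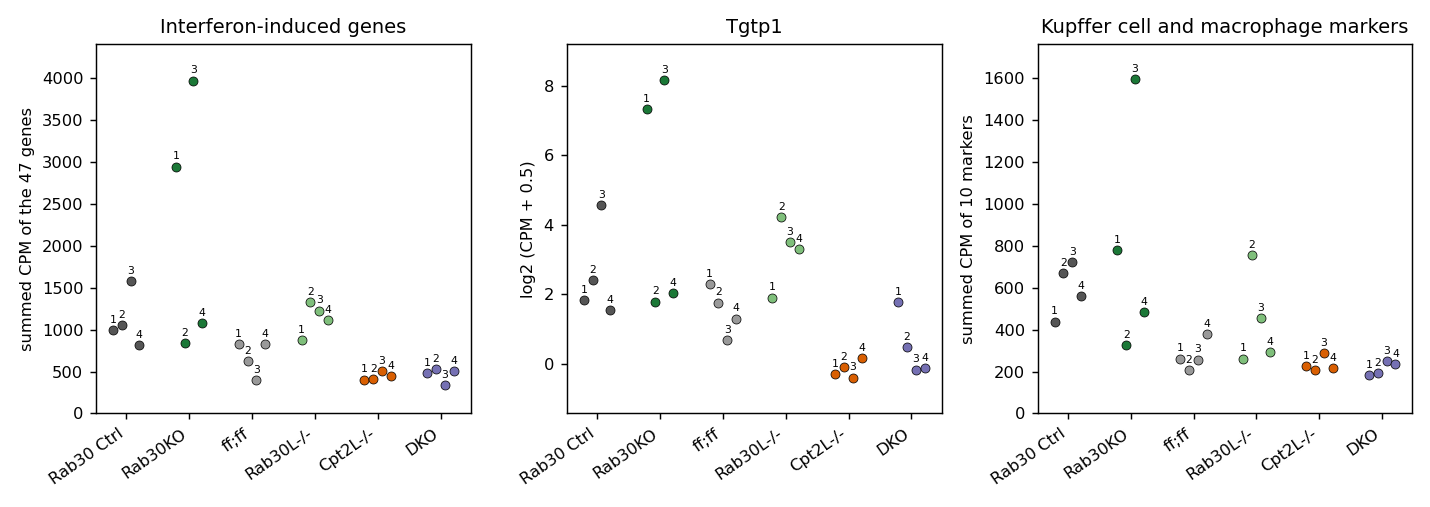
Summed CPM of the 47 genes, log2 (CPM + 0.5) of Tgtp1, and summed CPM of 10 Kupffer cell and macrophage markers in each liver, numbered 1 to 4 within each genotype. Rab30KO 1 and 3 reach 2944 and 3970 CPM in the left panel and are the highest livers in all 3 panels, with Rab30KO 3 well above the others in the markers.

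Spread within a genotype was larger for these genes than for the transcriptome as a whole. In Rab30KO the median SD of log2 (CPM + 0.5) among 4 livers was 0.86 for the 47 genes and 0.29 for all genes kept. In Rab30 Ctrl the values were 0.54 and 0.3, in the floxed controls 0.44 and 0.3, and in Rab30L-/- 0.44 and 0.25. The Cpt2L-/- livers were the most uniform, with 0.29 and 0.23, and the DKO livers had 0.37 and 0.25. Within several genotypes 1 liver was low or high across the list: Rab30L-/- 1 was the lowest of its genotype in 40 of the 47 genes, floxed control 3 and Rab30KO 2 were each the lowest of theirs in 32, and Rab30 Ctrl 3 was the highest of its own in 38. In those genotypes a single liver was therefore lowest or highest in most of the 47 genes. The same count was not made over all genes. Among Cpt2L-/- livers none was lowest in more than 22 of the 47 genes or highest in more than 21.

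For hepatocyte Rab30 loss alone, Rab30L-/- livers were compared with the floxed controls. The median log2 fold change of the 46 genes tested was 0.93, against 0.0022 over all genes, and 45 of the 46 fold changes were positive. Ifi27l2a did not pass the filter. In 16 of the 47 genes all 4 Rab30L-/- livers lay above all 4 floxed controls, against 3.52% of all genes. Only 6 were called, all higher: Mndal, Gbp11, Irf1, Ifi204, Tgtp2 and Gbp3, against 0.299% of all genes called higher. The comparison with floxed controls in this and the next paragraphs always uses the same 4 control livers. For the level of the list in each liver, the median of its genes was taken, as log2 level less the gene's mean over all livers. It averaged 0.499 in Rab30L-/-, 0.485 in wildtype Rab30 Ctrl and -0.369 in the floxed controls. Rab30L-/- livers thus lay near the wildtype livers on average, and the floxed controls lay below both. Rab30L-/- was not tested against Rab30 Ctrl.

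Of the called genes, Mndal was at least 26.7-fold higher in Rab30L-/- than a floor of 3 counts per library in the floxed controls (adjusted p = 2.59e-04). Ifi204 lay at 4.91, 8.0, 5.54 and 4.48 CPM against 1.22, 1.30, 1.05 and 1.65 CPM, with a log2 fold change of 2.11 (SE 0.29, adjusted p = 0.00781). Both genes lie in the stretch of chromosome 1 in which livers of the same genotype differed, so these calls cannot be told apart from inherited differences between the mice.

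Gbp11, a GBP listed as a polymorphic pseudogene (ENSMUSG00000092021, chromosome 5 from 105323042 to 105346472, minus strand), separated Rab30L-/- from the floxed controls without overlap. It lay at 17.7, 14.4, 28.8 and 38.6 CPM in Rab30L-/- and at 2.88, 1.24, 2.65 and 1.78 CPM in the floxed controls, with a log2 fold change of 3.55 (SE 0.37, adjusted p = 0.00193). Across the study, all 12 livers of Rab30 Ctrl, Rab30KO and Rab30L-/- lay at 12.2 CPM or above, and all 12 livers of the other genotypes at 6.0 CPM or below. Wildtype Rab30 Ctrl thus lay with Rab30L-/-, and the level of Gbp11 did not follow the Rab30 label. Whether inherited differences between the mice play a part here was not tested. Gbp3, a GBP of the chromosome 3 group, lay at 4.30, 9.40, 11.3 and 5.54 CPM against 2.80, 2.31, 2.23 and 2.73 CPM, with a log2 fold change of 1.60 (SE 0.31, adjusted p = 0.0461).

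Irf1 was the called transcription factor (ENSMUSG00000018899, chromosome 11 from 53770014 to 53778374, plus strand). It lay at 28.7, 47.3, 37.4 and 31.3 CPM in Rab30L-/- and at 15.7, 11.9, 11.01 and 13.6 CPM in the floxed controls, with a log2 fold change of 1.46 (SE 0.18, adjusted p = 0.00405). In wildtype Rab30 Ctrl livers Irf1 lay at 18.5 to 42.0 CPM, overlapping Rab30L-/-. Irf7, Irf9 and Stat2 averaged 33.0 ± 7.28, 45.0 ± 11.1 and 82.6 ± 11.1 CPM (SD, n = 4) in Rab30L-/- against 19.5 ± 9.89, 31.4 ± 7.68 and 64.3 ± 23.6 CPM and were not called. Tgtp2 lay at 2.19, 11.1, 14.01 and 6.45 CPM against 0.611, 0.473, 0.836 and 1.40 CPM, with a log2 fold change of 3.32 (SE 0.55, adjusted p = 0.0302), and, as a near copy of Tgtp1, its count is uncertain.

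None of the 18 antiviral effectors tested was called here, although their median log2 fold change was 0.80. Isg15, for instance, lay at 4.53, 5.69, 11.6 and 6.68 CPM in Rab30L-/- against 1.31, 2.19, 0.976 and 3.94 CPM. The chemokines Cxcl9 and Cxcl10 overlapped between the groups and were not called. Of 106 other interferon pathway genes tested, 1 was called, higher, beside 0.299% of all genes called higher. It was Ifi213, at least 5.52-fold higher than the floor of 3 counts per library in the floxed controls (adjusted p = 0.0214). The call held in 3 of the 8 fits that left out 1 library.

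Calls for Mndal, Gbp11, Irf1 and Ifi204 held in all 8 fits that left out 1 library, whereas that of Tgtp2 held in 2 and that of Gbp3 in 1, and neither was called in a fit over all 24 libraries (adjusted p = 0.23 and 0.276). The count was 18 by DESeq2, 14 without the filter on low counts and 12 without Rab30L-/- 1. The 10 macrophage markers summed to 262, 754, 454 and 292 CPM in Rab30L-/- 1 to 4 and to 208 to 378 CPM in the floxed controls, with Rab30L-/- 2 also highest in Irf1, Irf7 and Ifi204 within its genotype. Of the other lists, 3 did not overlap between the groups. B cell markers summed to 5.96 to 9.90 CPM in Rab30L-/- against 1.32 to 3.06 CPM in the floxed controls. Neutrophil markers summed to 2.72 to 20.4 against 1.53 to 2.60 CPM, and hepatocyte markers to 76746 to 86775 against 89707 to 112164 CPM. Alb made up most of the hepatocyte sum, at 52551 to 63798 against 70998 to 94359 CPM. Every other hepatocyte marker overlapped between the groups. Of these, Apoa2 and Fgb reached higher in Rab30L-/-, to 4454 and 6001 CPM against 3570 and 3354 CPM. The part of these lists in the result was not tested.

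**Figure D4:**
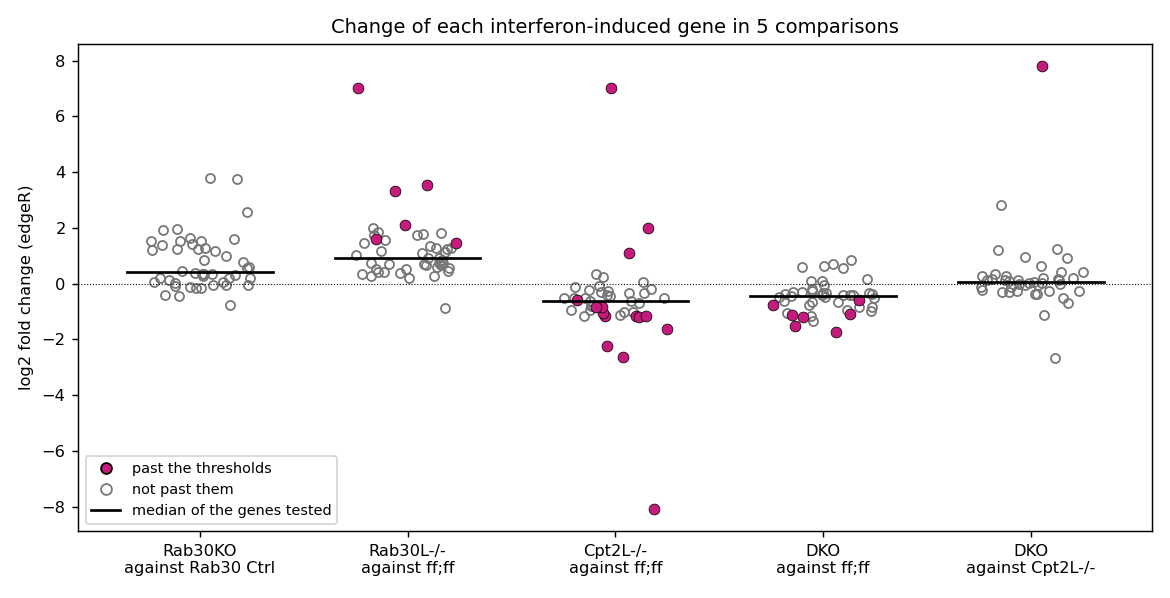
Log2 fold change of each interferon-induced gene tested in the 5 comparisons (points, with genes past the thresholds filled) and the median (line). The median lies at 0.93 for Rab30L-/- against floxed controls and below 0 for Cpt2L-/- and DKO against floxed controls, and the points beyond 7 or below -7 are Mndal and Ifi202b, which have no counts or almost none in 1 of the groups.

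Loss of Cpt2 in hepatocytes, which blocks the oxidation of long-chain fatty acids, was accompanied by lower levels of much of the list. Of 43 genes tested in Cpt2L-/- livers against floxed controls, 12 were called lower, against 11.9% of all genes, and 3 were called higher, all of them Ifi200 genes, against 11.9% of all genes. The median log2 fold change was -0.62, against -0.0035 over all genes, and 37 of the 43 fold changes were negative. Gbp10, Ifi27l2a, Ifit3b and Tgtp2 were too low to be tested. In 6 of the 47 genes all 4 Cpt2L-/- livers lay below all 4 floxed controls, which was also true of 12.3% of all genes, a similar share.

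The transcription factors of the type I pathway fell. Irf7 lay at 7.56, 7.24, 8.87 and 11.5 CPM in Cpt2L-/- and at 15.3, 18.0, 11.2 and 33.8 CPM in the floxed controls, with a log2 fold change of -1.16 (SE 0.30, adjusted p = 0.0137). Stat2 fell from 64.3 ± 23.6 to 36.5 ± 8.44 CPM (SD, n = 4; log2 fold change -0.82, SE 0.25, adjusted p = 0.0311), and its partner Irf9 from 31.4 ± 7.68 to 21.2 ± 4.15 CPM (log2 fold change -0.58, SE 0.20, adjusted p = 0.0469). Irf1 did not follow them, at 13.3, 12.1, 17.0 and 12.9 CPM against 15.7, 11.9, 11.01 and 13.6 CPM, and was not called.

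Among the antiviral effectors, 4 of 17 tested were called lower. Bst2 (chromosome 8 from 71534255 to 71537456, minus strand) lay at 21.3, 19.6, 37.2 and 31.0 CPM in Cpt2L-/- and at 46.9, 50.3, 52.2 and 91.0 CPM in the floxed controls, with no overlap (log2 fold change -1.15, SE 0.25, adjusted p = 0.00447). Ifit1, which binds viral RNA caps, fell from 5.44 ± 3.37 to 1.76 ± 0.411 CPM (SD, n = 4; log2 fold change -1.62, SE 0.44, adjusted p = 0.0184), and Oasl1, an inhibitor of Irf7 translation, from 5.50 ± 2.24 to 2.39 ± 0.65 CPM (log2 fold change -1.20, SE 0.34, adjusted p = 0.0218). For Ifit1 and Oasl1 the groups overlapped, since floxed control 3 was as low as the Cpt2L-/- livers. The fourth was the nucleic acid sensor Zbp1, outside the naming rule and chosen with its values in view. It fell from 2.93 ± 1.12 to 1.30 ± 0.42 CPM (log2 fold change -1.17, SE 0.37, adjusted p = 0.0352).

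Of the IRGs, Tgtp1 lay at 0.32, 0.441, 0.259 and 0.624 CPM in Cpt2L-/- and at 4.37, 2.90, 1.12 and 1.97 CPM in the floxed controls (log2 fold change -2.62, SE 0.47, adjusted p = 0.00135). Irgm1, a regulatory IRG that acts on mitophagy and autophagy, fell from 41.9 ± 14.4 to 20.2 ± 3.76 CPM (log2 fold change -1.07, SE 0.25, adjusted p = 0.00803). Gbp11 fell further from its low control level, to 0.384, 0.189, 0.648 and 0.562 CPM (log2 fold change -2.24, SE 0.43, adjusted p = 0.00201), without overlap. The other 6 GBPs tested were not called. Psmb8, a catalytic subunit of the immunoproteasome, fell from 10.7 ± 2.95 to 5.99 ± 2.39 CPM (log2 fold change -0.85, SE 0.27, adjusted p = 0.0391), with floxed control 2 below Cpt2L-/- 3.

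The Ifi200 genes moved apart in this comparison, in which the effect of the deletion and inherited differences between the mice at this locus cannot be told apart. Mndal was at least 26.5-fold higher in Cpt2L-/- than the floor of 3 counts in floxed controls (adjusted p = 6.23e-06), and Ifi202b at least 11.8-fold lower than in floxed controls when its 4 empty libraries are set to that floor (adjusted p = 5.99e-05). Ifi204 rose from 1.30 ± 0.254 to 5.25 ± 0.733 CPM (log2 fold change 1.98, SE 0.25, adjusted p = 1.15e-04), and Ifi203 from 2.91 ± 0.721 to 6.39 ± 0.316 CPM (log2 fold change 1.12, SE 0.23, adjusted p = 0.00316). All 3 rises were the same way in 4 of 4 livers, without overlap.

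Of 96 other interferon pathway genes tested, 20 were called lower and 5 higher, with a median log2 fold change of -0.28, beside 11.9% of all genes called in each direction. Antigen presentation accounted for 6 of the lower calls, among them B2m, the light chain of MHC class I (log2 fold change -1.17), and H2-K1, a heavy chain (-0.70). Other interferon-induced genes accounted for 8, among them Ly6e (-1.43) and the virus restriction factors Mx2 (-1.89) and Ifitm3 (-1.33). Of the 5 receptor genes tested, 2 were called higher, Ifngr2 (0.84), a chain of the interferon gamma receptor, and Il10rb (0.92), a chain shared by the receptors of interleukin 10 and interferon lambda.

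The number of the 47 genes called, 15 in both directions, went to 25 without floxed control 3 and to 9 without Cpt2L-/- 1, and the calls of Irf9 and Zbp1 held in 2, those of Stat2 and Psmb8 in 3, that of Oasl1 in 5 and that of Ifit1 in 6 of 8 fits with a library left out. In a fit over all 24 libraries Tgtp1, Gbp11, Zbp1, Psmb8 and Irf9 were not called (adjusted p = 0.26, 0.127, 0.284, 0.195 and 0.0733). Macrophage markers summed to 207 to 289 CPM in Cpt2L-/- and 208 to 378 CPM in the floxed controls, although Cd68 alone was higher, at 28.5 to 48.4 CPM against 4.67 to 8.25 CPM. The hepatocyte markers summed to 39860 to 52674 CPM against 89707 to 112164 CPM. Alb made up most of the hepatocyte sum, and Apoa1, Apoa2 and Hnf4a overlapped between the groups. Summed dendritic cell markers were also lower without overlap, at 3.97 to 5.50 CPM against 6.06 to 6.86 CPM. Clec9a made up most of this sum, at 2.90 to 4.31 CPM against 4.54 to 5.03 CPM, and the other dendritic cell markers overlapped. The part of these shifts in the result was not tested.

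With both genes deleted, the DKO livers were also lower than the floxed controls in some of the genes. Of 44 tested, 7 were called, all lower, against 8.24% of all genes: Bst2, Irf7, Psmb8, Oasl1, Isg15, Irf9 and Usp18. The median log2 fold change was -0.43, against -0.018 over all genes. Gbp10, Ifi27l2a and Mndal were too low to be tested. All 4 DKO livers lay below all 4 floxed controls in 5 of the 47 genes, compared with 9.63% of all genes.

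Irf7 lay at 5.24, 8.52, 4.81 and 8.58 CPM in the DKO, below the 11.2 to 33.8 CPM of the floxed controls (log2 fold change -1.53, SE 0.33, adjusted p = 0.0099). Bst2 lay at 25.6, 28.8, 22.6 and 37.0 CPM, below the 46.9 to 91.0 CPM of the controls (log2 fold change -1.08, SE 0.23, adjusted p = 0.00682). Psmb8 lay at 6.07, 3.48, 3.38 and 6.80 CPM, below 8.34 to 15.0 CPM (log2 fold change -1.11, SE 0.28, adjusted p = 0.0179). These 3 did not overlap with the controls.

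Isg15, which is attached to other proteins as a ubiquitin-like tag, lay at 0.698, 0.968, 0.715 and 0.235 CPM in the DKO against 1.31, 2.19, 0.976 and 3.94 CPM (log2 fold change -1.72, SE 0.52, adjusted p = 0.0408). Usp18, the protease that removes that tag and also restrains type I interferon signalling, lay at 5.86, 5.29, 7.28 and 5.30 CPM against 14.4, 7.51, 7.60 and 11.05 CPM (log2 fold change -0.77, SE 0.24, adjusted p = 0.0478). Oasl1 and Irf9 fell to 2.38 ± 0.81 and 21.03 ± 2.60 CPM (SD, n = 4; log2 fold changes -1.21 and -0.59, SE 0.36 and 0.18, adjusted p = 0.0387 and 0.0455), each overlapping the controls. Stat2 was not called, at 41.3 ± 5.52 against 64.3 ± 23.6 CPM, nor were Irf1, Cxcl9 and Cxcl10.

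Of 100 other pathway genes tested, 12 were called lower, beside 8.24% of all genes, among them Ifitm3, Apol9a, Ly6e and B2m, and 1 higher, Ifngr2. The calls of Bst2 and Irf7 held in all 8 fits that left out 1 library, while those of the other 5 held in 1 to 5 of them. In a fit over all 24 libraries Psmb8, Irf9 and Usp18 were not called (adjusted p = 0.0996, 0.0825 and 0.107). The count of 7 went to 13 without floxed control 3, to 2 without floxed control 4 or DKO 3, to 3 without DKO 4, and to 4 without any 1 of DKO 1, DKO 2 and floxed controls 1 and 2. The hepatocyte markers summed to 51219 to 65030 CPM in the DKO against 89707 to 112164 CPM in the floxed controls. Alb again made up most of this sum, and Apoa1, Trf and Hnf4a overlapped between the groups. The macrophage markers summed to 184 to 250 against 208 to 378 CPM, and Cd68 alone lay at 23.4 to 62.3 against 4.67 to 8.25 CPM. Dendritic cell markers summed to 3.16 to 5.66 CPM in the DKO, again below the floxed controls. Of these, Clec9a lay at 1.81 to 4.29 CPM against 4.54 to 5.03 CPM, and the others overlapped. The part of these shifts in the result was not tested.

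**Figure D5:**
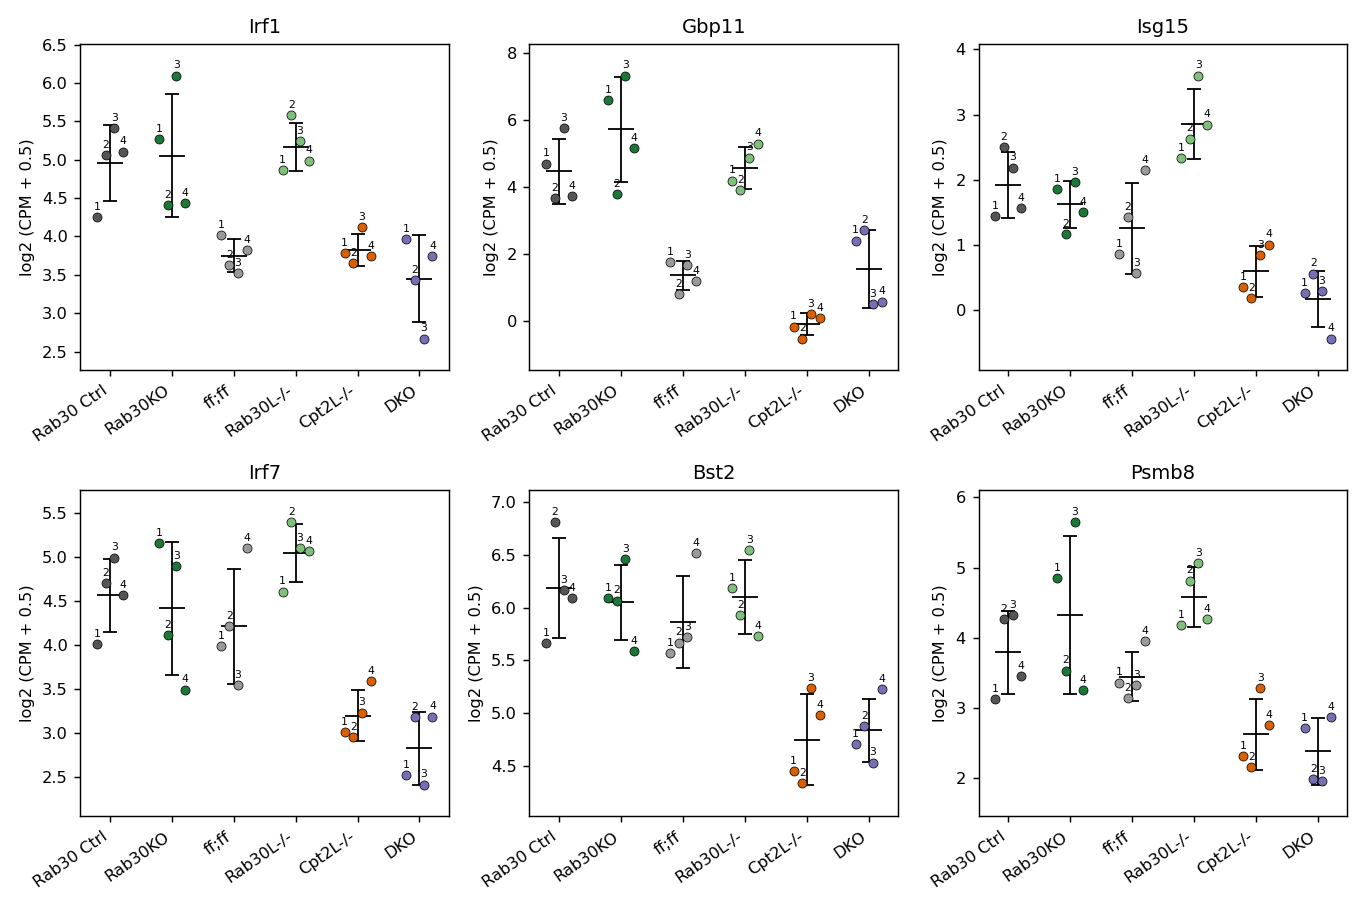
Irf1, Gbp11, Isg15, Irf7, Bst2 and Psmb8 in each liver as log2 (CPM + 0.5), numbered 1 to 4 within each genotype, with the mean and SD of 4 livers as bars. Irf1 in Rab30L-/- lies above all floxed controls, Gbp11 divides the genotypes at a level between 6.0 and 12.2 CPM, and Irf7, Bst2 and Psmb8 are low in both Cpt2L-/- and DKO livers.

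Set directly against Cpt2L-/- livers, the DKO livers differed in few of the genes. Of 42 tested, 1 was called, Ifi202b, against 1.38% of all genes called higher. It was at least 9.0-fold higher in the DKO than the floor of 3 counts in the empty Cpt2L-/- libraries (adjusted p = 0.00178), and present in 4 of 4 DKO livers and 0 of 4 Cpt2L-/- livers. The median log2 fold change was 0.064, against -0.0031 over all genes. Gbp10, Ifi27l2a, Ifi44, Ifit3b and Tgtp1 were too low to be tested. Mndal went the other way, at 0, 0, 0.065 and 3.0 CPM in the DKO and 6.86, 3.59, 5.89 and 5.87 CPM in Cpt2L-/-, and was not called (adjusted p = 0.19). Irf7, Irf9, Stat2, Irf1, Cxcl9 and Cxcl10 were not called, and neither was any of the 96 other pathway genes tested. The count went to 4 without DKO 4 and to 2 without DKO 3, and in the fit over all 24 libraries Ifi202b was not called (adjusted p = 0.134).

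Whether the contrast of Rab30 deletion differed between livers with and without Cpt2 was tested as an interaction over 16 libraries, the log2 change from Cpt2L-/- to DKO less that from floxed controls to Rab30L-/-. Of the 47 genes, 7 were called negative, against 1.86% of all genes, and 1 positive, against 2.2%. The median was -0.94, against -0.012 over all genes. The level of the list, as liver medians, averaged -0.369 in floxed controls, 0.499 in Rab30L-/-, -0.825 in Cpt2L-/- and -0.794 in DKO livers. In wildtype Rab30 Ctrl livers, outside the test, it averaged 0.485.

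The clearest signalling gene was Irf1, which averaged 13.1 ± 2.08 CPM in floxed controls, 36.2 ± 8.29 in Rab30L-/-, 13.8 ± 2.16 in Cpt2L-/- and 11.03 ± 3.96 in DKO livers (SD, n = 4; interaction -1.77, SE 0.32, adjusted p = 0.00428). Gbp3 averaged 2.52 ± 0.288, 7.63 ± 3.26, 2.0 ± 0.183 and 1.82 ± 0.443 CPM in the same order (interaction -1.72, SE 0.40, adjusted p = 0.0228). Isg15 averaged 2.10 ± 1.32, 7.13 ± 3.12, 1.05 ± 0.415 and 0.654 ± 0.306 CPM (interaction -2.43, SE 0.65, adjusted p = 0.0427). Tap1, the peptide pump of antigen presentation, averaged 20.2 ± 3.29, 32.0 ± 5.17, 25.8 ± 5.80 and 21.9 ± 3.20 CPM (interaction -0.87, SE 0.24, adjusted p = 0.0463). In each of these 4 genes the Rab30L-/- mean was the highest of the 4 genotypes in the test. Wildtype Rab30 Ctrl livers, outside the test, lay at 18.5 to 42.0 CPM in Irf1 and 5.02 to 16.4 CPM in Gbp3. They lay at 2.20 to 5.14 CPM in Isg15 and 18.1 to 43.0 CPM in Tap1. Each of these ranges overlapped that of Rab30L-/-.

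The remaining calls were Ifi200 genes, for which inherited differences between the mice cannot be told apart from the deletions: Ifi204 (interaction -3.26, SE 0.44, adjusted p = 3.04e-04), Ifi203 (-1.76, SE 0.33, adjusted p = 0.00618), Mndal (adjusted p = 0.00446) and, in the positive direction, Ifi202b (adjusted p = 1.98e-04). For the last 2 a group was empty or nearly so, and the size of a fitted change has no meaning beyond that. Of 106 other pathway genes tested, 4 were called, all negative, beside 1.86% of all genes called negative. They were Ifi213, Tap2, the partner of Tap1 (interaction -1.16, SE 0.27, adjusted p = 0.0240), Uba7, which activates Isg15 (-1.31, SE 0.32, adjusted p = 0.0289), and Ifi209. The calls of Isg15 and Tap1 held in 5 and 4 of the 16 fits that left out 1 library, and those of the other 6 in all 16. In a fit over all 24 libraries Ifi202b, Gbp3 and Tap1 were not called (adjusted p = 0.0951, 0.303 and 0.463).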

How the data were processed

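Total RNA of 24 fasted livers was sequenced by Novogene. The submitters' processing notes name HISAT2, DESeq2 and the build GRCm38 (mm10), without versions or roles; the counter, annotation and strand setting are not given in the sources used here. For every gene the authors deposited read counts, not normalized, and FPKM values. Their normalized counts and their pairwise tables of fold changes and p-values were not used. Library totals were 11801027 to 24497738 counts. Intervals and floors cover counting error only, since reads carry no molecular identifiers.

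Groups came from the labels. Libraries of a genotype were compared pair by pair and all differed by more than counting noise. The main test was edgeR 4.0.16 (R 4.3.3): filterByExpr, TMM, glmQLFit with robust estimation and glmQLFTest, on the 8 libraries of each comparison or the 16 of the interaction, with Benjamini-Hochberg adjustment over all genes tested. Called genes had an adjusted p under 0.05 and, except for the interaction, a change of at least 1.2-fold. Levels are CPM with TMM sizes over 24 libraries, and log2 levels add 0.5 CPM. Where the lower group held at most 3 counts per library, the fold change is a lower bound against 3 counts per library.

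The members, lists and tests were chosen with earlier results of these data known. The text names each called member (beyond 12 in a comparison the 12 smallest p-values, with at least 1 per class), each member with separate levels, the 3 smallest p-values where none was called, Irf1, Irf7, Irf9, Stat2, Cxcl9 and Cxcl10, and, of 132 other pathway genes found of 137 listed, those called in the interaction. The rule also names 1 pathway gene whatever its result, which is not reported here. Other pathway genes named are examples chosen after their values were seen. Markers of 9 cell types were fixed from textbook knowledge. Promoters came from RefSeq (GRCm38.p6) and shared stretches from GENCODE M21 transcripts, whose coordinates matched those of 45 of the 47 members.

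Alternatives were DESeq2 1.42.0 size factors, its Wald test, a joint fit of the 24 libraries, no low-count filter, no fold threshold, each library left out, and other gaps and pseudocounts for the rule on separate levels. The fit was tested on simulated counts. Other tables used Python with pandas and numpy.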

Additional observations from a re-analysis of the deposited data

Results flagged for a closer look

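In some genotypes 1 liver lay far from the other 3, with a gap to its nearest neighbour above Dixon's 95% critical value on the log2 scale. Of 144 combinations of gene and genotype, over 24 genes, this held for 9, and chance alone flags about 1 in 20. Rab30L-/- 1 was low in Ifit1 (6.34 CPM), Oasl1 (6.04 CPM) and Zbp1 (3.40 CPM), and Rab30L-/- 2 was high in Ifi203 (9.65 CPM). Floxed control 4 was high in Bst2 (91.0 CPM), and Rab30 Ctrl 3 was high in Ifi47 (30.9 CPM). DKO 4 was the only DKO liver with Mndal (3.0 CPM), floxed control 3 the only floxed control with any count of it (0.139 CPM), and Rab30KO 4 the only Rab30KO liver with Ifi202b (2.72 CPM).

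The contrast of Rab30 deletion differed between livers with and without Cpt2, by the test of the interaction in edgeR with adjusted p, for 8 genes. Its log2 size was -0.87 for Tap1, -1.77 for Irf1, -1.76 for Ifi203, -1.72 for Gbp3, -3.26 for Ifi204 and -2.43 for Isg15. The fitted values were -9.74 for Mndal and 8.65 for Ifi202b, where a group without counts leaves the size undefined.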

How the results depend on the processing

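The count of genes called higher in Rab30L-/- than in floxed controls rose from 6 to 18 by DESeq2's Wald test and to 14 without the filter on low counts, and ranged from 4 to 12 with 1 library left out. For Cpt2L-/- against floxed controls the count of 15 ranged from 9 to 25, for DKO against floxed controls that of 7 from 2 to 13, and for the interaction that of 8 from 6 to 11, with 5 in the fit over all 24 libraries. For DKO against Cpt2L-/- the count of 1 became 3 by DESeq2, 0 over all 24 libraries and 2 without the filter, and ranged from 1 to 4. For Rab30KO against Rab30 Ctrl it stayed at 0 in every alternative run. The 3 genes with separate levels became 5 at a gap of 1.5 and 0 at a gap of 3, and ranged from 1 to 6 with 1 library left out: 1 without Rab30KO 1 or Rab30KO 3, and 6 without Rab30 Ctrl 3.

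Median log2 fold changes kept their sign with each library left out, except for DKO against Cpt2L-/- (-0.066 to 0.14). The ranges were 0.17 to 0.62 for Rab30KO against Rab30 Ctrl, 0.76 to 1.16 for Rab30L-/-, -0.82 to -0.47 for Cpt2L-/- and -0.62 to -0.37 for DKO against floxed controls, and -1.06 to -0.78 for the interaction. Without both Rab30KO 1 and 3, chosen after seeing the data, the first was -0.41, with Ifi47 at -0.013, Gbp5 at -0.34 and the medians of GBPs and IRGs at -0.36 and -0.40. The fit over all 24 libraries lost 14 of the named calls, and the fits with a library left out lost a named call 90 times. The causes were not tested. With 4 livers per genotype and library totals of 11801027 to 24497738 counts, genes at a few CPM carry wide errors.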
